A study of Mus musculus with 4 samples.

Results

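The levels of 39 genes of the histone acetylation machinery were measured in mouse T helper 17 (Th17) cells, the IL-17-producing class of CD4 helper cells. The genes were chosen by name and function, with earlier results of these data known. They comprised 4 class I, 4 class IIa and 2 class IIb and IV histone deacetylases, 4 nuclear or cytosolic and 3 mitochondrial sirtuins, 2 acetyltransferases of the p300/CBP type, 3 of the GCN5 and HAT1 types and 5 of the MYST type, 6 bromodomain genes and 6 scaffolds of deacetylase complexes. All 39 were found among the 50600 genes listed, and each was annotated as protein-coding. Family members outside this list were not counted in the set, although some of them, such as other bromodomain genes, appear below among the partner genes.

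The 4 libraries sequenced were of a single kind, so no treatment or genotype is contrasted and the data describe one cell type and the spread between its libraries. The cells were primary Th17 cells of strain C57BL/6NJ obtained by in vitro differentiation of CD4 T cells, and the name of each count table carries 48 hours. The libraries bear replicate numbers 1 to 4 and a common donor label, with sex not collected and age unknown. Nothing in the labels states that they came from separate mice or cultures, so each p-value reflects only how these 4 samples spread, which may be technical in part.

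Acetyltransferases place acetyl groups on histone lysines, bromodomains bind the acetylated lysines, and deacetylases remove the mark. Class I, II and IV deacetylases use zinc, whereas sirtuins use NAD. Of class I, Hdac1 and Hdac2 work inside nuclear complexes built on SIN3, CoREST or MTA proteins, and Hdac3 in NCoR complexes. Class IIa enzymes shuttle between nucleus and cytoplasm under calcium and kinase signals and bind MEF2 factors. In T cells these enzymes act at cytokine and lineage genes, and several also modify proteins other than histones.

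Library totals lay between 28555677 and 58104663 counts. Markers of the labelled cell type were present. The T cell and Th17 list (Cd3e, Cd4, Il17a, Il17f and Ccr6) summed to between 16199 and 16879 TPM. TPM is counts per exon length, scaled to the same total in each library. Most of the sum was Il17f (mean 11569 TPM) and Il17a (mean 4436 TPM). No marker of another CD4 helper class was in the lists, so the presence of such cells was not examined. Of the markers of other cells, the 4 of B cells summed to at most 1.04 TPM with Ms4a1 at 0 counts, the 4 of macrophages and monocytes to at most 1.28 with Lyz2 at 0, the 3 of NK cells to at most 0.130 with Ncr1 and Klrb1c at 0, and the 3 of neutrophils to at most 0.656 with S100a8 and S100a9 at 0. The 2 CD8 T cell markers summed to between 9.01 and 11.6 TPM, carried by Cd8b1. The libraries were not uniform in sex-linked transcripts: Xist was at 132, 131, 0.329 and 0.496 TPM and the Y-linked gene Ddx3y at 0.428, 0.347, 58.9 and 57.3 TPM in replicates 1 to 4. Replicates 1 and 2 thus carried Xist and little Y-linked RNA and replicates 3 and 4 the reverse, which goes against a single animal behind the common donor label.

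The machinery was expressed almost in full. Of the 39 genes, 37 reached 1 TPM or more in every library, whereas 47% of all protein-coding genes did so (10223 of 21764). A mean of 10 TPM or more was reached by 34 of the 39, against a background of 36.3%, and 7 passed a mean of 100 TPM, against 9.33%. The median over the 39 genes was 38.9 TPM, beside 31.3 TPM over the protein-coding genes detected in every library, so the set as a whole lay close to the typical expressed gene. Highest by TPM was Mta2, a subunit of the NuRD deacetylase complex, at 316 ± 3.20 TPM (SD, n = 4). In CPM, which scales counts by the library total without length, the BET reader Brd2 was above it, at 463 ± 8.82 CPM for Brd2 and 389 ± 2.27 CPM for Mta2. The 2 genes under 1 TPM were Hdac9, a class IIa deacetylase, at 0.0857 ± 0.00663 TPM, and Hdac11, the class IV deacetylase, at 0.129 ± 0.107 TPM. Their values overlapped, and in CPM Hdac11 was the lower of them.

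**Figure D1:**
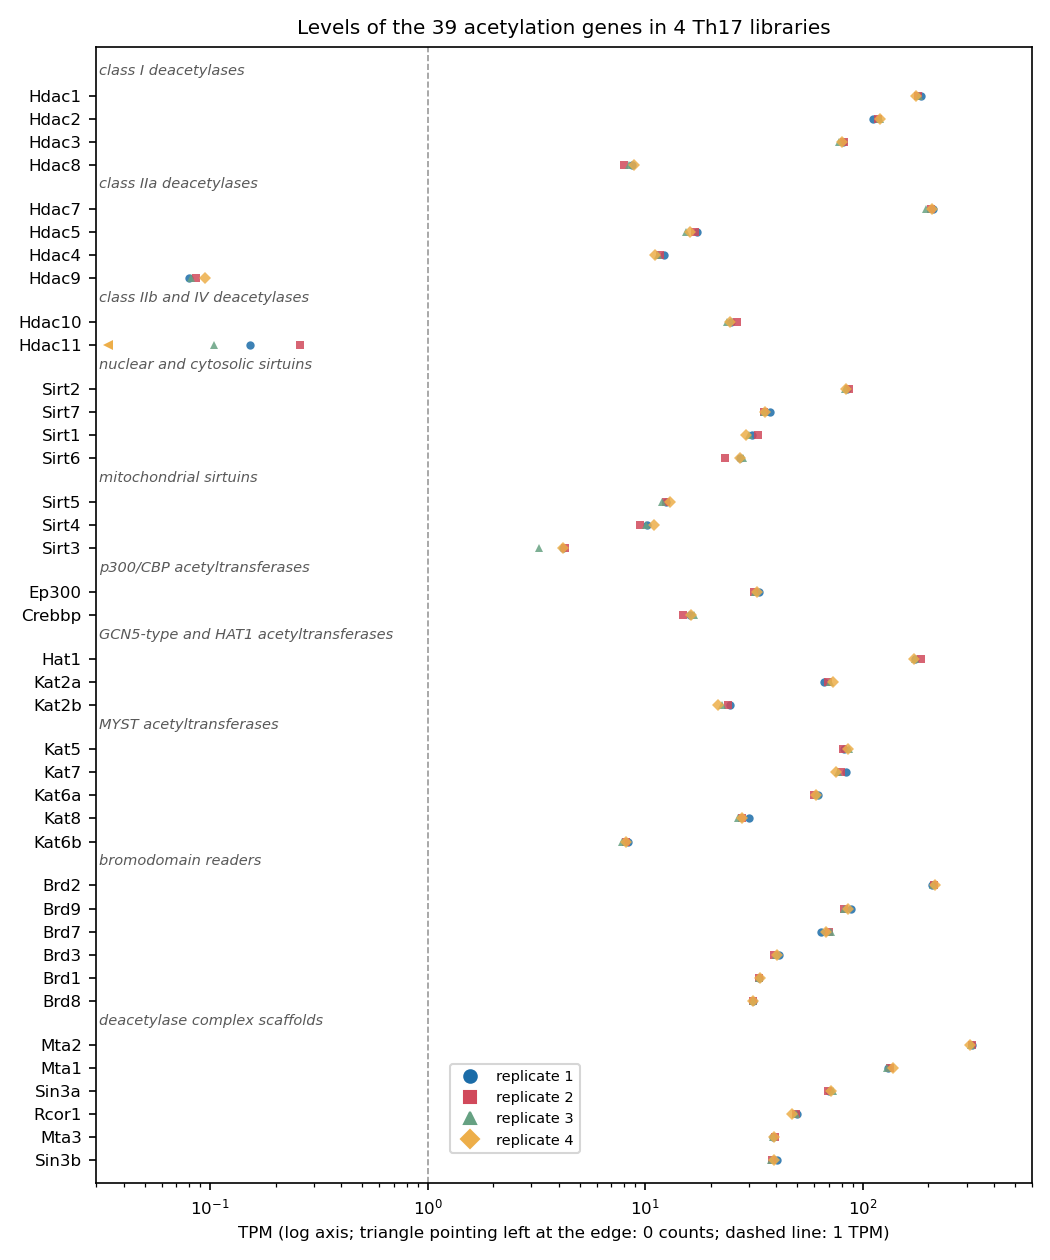
TPM of each of the 39 genes in each of the 4 libraries on a log axis, grouped by role and ordered by mean within a role; each symbol is 1 library, and a triangle pointing left at the edge stands for 0 counts. Hdac9 and Hdac11 lie left of the dashed line at 1 TPM, the other 37 lie right of it, and the 4 symbols of most genes overlap.

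Sequence upstream of the start sites is shown for 3 abundant genes of different roles and for the 2 genes under 1 TPM, so that windows of expressed and nearly silent genes can be compared. RefSeq starts (GRCm38.p6) were available for 33 of the 39 genes and gave 47 windows of the 250 bases before a start, some of them overlapping within a gene. Capitals mark letters of 6 motifs on either strand: the palindromic NRF1 motif, CCGGAAG for ETS factors, AANATGGCG for YY1, the ZNF143 motif, CCAAT for NF-Y and TATAAA for the TATA box. In Mta2 the ETS letters occur on both strands and overlap. Each window printed here holds a motif, but many others hold none. Among these are every window of Hdac7 and those of Hdac2 and Mta1, all higher in mean TPM than Sirt2. The other Hdac9 window also holds none.
Mta2, chr19:8941670-8941919, plus strand: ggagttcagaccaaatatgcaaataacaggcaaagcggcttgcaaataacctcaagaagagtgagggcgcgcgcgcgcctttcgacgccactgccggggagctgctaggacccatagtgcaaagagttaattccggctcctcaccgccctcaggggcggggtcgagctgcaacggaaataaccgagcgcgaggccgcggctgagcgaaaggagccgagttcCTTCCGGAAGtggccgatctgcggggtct
Brd2, chr17:34122608-34122857, minus strand: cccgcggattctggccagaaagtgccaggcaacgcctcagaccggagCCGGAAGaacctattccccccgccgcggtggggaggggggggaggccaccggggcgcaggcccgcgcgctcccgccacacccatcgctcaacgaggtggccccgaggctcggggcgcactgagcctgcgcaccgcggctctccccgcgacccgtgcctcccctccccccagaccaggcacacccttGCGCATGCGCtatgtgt
Sirt2, chr7:28766502-28766751, plus strand: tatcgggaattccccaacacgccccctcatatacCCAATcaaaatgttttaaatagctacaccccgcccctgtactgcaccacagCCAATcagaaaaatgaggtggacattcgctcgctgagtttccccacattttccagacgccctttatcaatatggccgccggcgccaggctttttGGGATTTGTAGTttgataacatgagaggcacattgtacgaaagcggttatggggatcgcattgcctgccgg
Hdac11, chr6:91156565-91156814, plus strand: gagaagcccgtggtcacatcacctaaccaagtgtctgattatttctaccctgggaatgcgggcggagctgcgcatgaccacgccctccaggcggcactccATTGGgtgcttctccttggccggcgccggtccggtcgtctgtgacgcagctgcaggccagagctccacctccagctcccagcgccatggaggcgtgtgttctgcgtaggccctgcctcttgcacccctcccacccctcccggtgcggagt
Hdac9, chr12:34917096-34917345, minus strand: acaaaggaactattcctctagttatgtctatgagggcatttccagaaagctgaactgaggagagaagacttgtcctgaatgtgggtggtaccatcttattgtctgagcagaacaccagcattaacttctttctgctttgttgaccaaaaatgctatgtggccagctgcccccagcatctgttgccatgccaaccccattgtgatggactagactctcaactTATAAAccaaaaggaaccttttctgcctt

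CpG content varied among these windows without following the level of the gene throughout. The printed Hdac9 window held 44.4% G and C and no CpG (an observed-over-expected CpG ratio of 0), and the other Hdac9 window had a ratio of 0.175. The printed Mta2, Brd2 and Sirt2 windows had ratios of 1.06, 0.809 and 0.848, and the Hdac11 window 0.649, although Hdac11 was not detected. The other Brd2 windows had 0.945 and 0.543. Hdac7, among the most abundant of the genes, had 4 windows with ratios of 0.222, 0.761, 0.885 and 0.317. With G and C of at least 50% and a CpG ratio of at least 0.6, 33 of the 47 windows (70.2%) were CpG-rich. That share was 64.7% over windows of the detected protein-coding genes (1 TPM in each library) and 19.6% over windows of the other protein-coding genes.

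Motif counts in the 47 windows were small. ETS letters were in 8 windows (17.0%), against 15.0% for the detected genes and 6.91% of all windows. NRF1 letters were in 2 windows, of Brd2 and Sirt6 (4.26% against 1.82% and 0.782%), and ZNF143 letters in 2, of Sirt2 and Sirt4 (4.26% against 4.22% and 1.67%). YY1 letters were in 2 windows (4.26% against 2.32% and 1.12%), CCAAT in 16 (34.0% against 35.9% and 33.8%) and TATAAA in 3 (6.38% against 5.88% and 12.4%).

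Among class I deacetylases, which remove acetyl groups in the nucleus, Hdac1 was at 185, 179, 182.2 and 176 TPM in replicates 1 to 4. Its closest relative Hdac2, which shares complexes with it, was at 112, 118, 120 and 119 TPM. Hdac3, the catalytic subunit of NCoR complexes, was at 81.5, 81.9, 77.7 and 80.4 TPM. Their ranges did not overlap in any library, and Hdac1 made up 46.7 ± 0.885% (SD, n = 4) of the summed TPM of the 4 class I genes. The X-linked Hdac8 was the low member at 8.72, 7.97, 8.46 and 8.93 TPM, and replicates 1 and 2 lay within the range of replicates 3 and 4 or below it. The Hdac1 value carries a limit: 24.9% of the 100-base windows of its transcripts also occur in the processed pseudogene Gm10093 at another locus, which held 170, 172, 306 and 222 counts, and fragments that map to both places were not counted.

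Class IIa was dominated by a single gene. Hdac7, best known as the class IIa deacetylase of thymocytes, was at 211, 206, 196 and 209 TPM and made up 88.0 ± 0.355% of the summed TPM of class IIa. It lies on the minus strand of chromosome 15 from 97792664 to 97844502 in mm10. Hdac5 was at 17.4, 17.0, 15.3 and 16 TPM and Hdac4 at 12.1, 11.7, 11.5 and 11.1 TPM, so both lay far below Hdac7 in every library. Hdac9 was nearly silent, with 10, 14, 21 and 18 counts over an exon length of 14665 bases.

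In class IIb and IV, Hdac10, which acts chiefly on polyamines, was at 24.9, 26.4, 23.8 and 24.5 TPM. Hdac11, which removes long fatty acyl groups, had 5, 11, 7 and 0 counts. A count of 0 allows up to 3 counts, or 0.0699 CPM in replicate 4. Replicate 2, the highest, stood at 0.297 CPM against its own floor of 0.0811 CPM. Such floors cover counting error only.

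The NAD-dependent sirtuins split by compartment. Sirt2, mainly a cytosolic deacetylase, was at 84.5, 86.1, 82.7 and 83.4 TPM and led the nuclear and cytosolic group. Sirt7, the nucleolar sirtuin, was at 37.7, 35.4, 35.1 and 35.7 TPM. Sirt1, the nuclear sirtuin that deacetylates histones and transcription factors, was at 31.1, 33.0, 30.1 and 29.2 TPM. Sirt6, a chromatin deacetylase linked to glycolytic genes, was at 27.3, 23.3, 28.3 and 27.4 TPM, with replicate 2 below the others. The mitochondrial sirtuins were lower. Sirt5, a desuccinylase, averaged 12.5 ± 0.423 TPM (SD, n = 4), Sirt4 averaged 10.2 ± 0.605 TPM, and Sirt3, the main mitochondrial deacetylase, was at 4.20, 4.26, 3.26 and 4.18 TPM. All 3 mitochondrial members stayed below every nuclear or cytosolic member in every library, and Sirt5 shares 9.25% of its 100-base windows with transcripts of other loci.

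Of the acetyltransferases, Hat1, which acetylates newly made histone H4 before its deposition, was highest by TPM at 174, 185, 174 and 172 TPM. Kat2a (GCN5), the catalytic subunit of SAGA and ATAC, was at 66.7, 69.6, 70.5 and 73.2 TPM, and its paralogue Kat2b (PCAF) at 24.5, 24.0, 22.4 and 21.7 TPM. The enhancer coactivator Ep300 was at 33.5, 31.5, 32.1 and 32.7 TPM and its paralogue Crebbp at 16.1, 14.9, 16.9 and 16.2 TPM. In both families the paralogues were separated in each library, with Kat2a above Kat2b and Ep300 above Crebbp.

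Within the MYST family, Kat5 (TIP60) at 81.8, 81.3, 86.1 and 85.2 TPM and Kat7 (HBO1) at 83.6, 79.4, 76.9 and 75.8 TPM overlapped. Kat6a (MOZ) followed at 62.0, 60.0, 61.9 and 60.8 TPM. Kat8 (MOF), the main acetyltransferase of a histone H4 tail lysine, was at 28.1 ± 1.31 TPM and Kat6b (MORF) at 8.13 ± 0.227 TPM (SD, n = 4 each). The order from Kat6a to Kat8 to Kat6b was the same in every library by TPM, but it depends on exon length. In CPM, Kat6a averaged 169, Kat7 131, Kat5 50.4, Kat6b 41.1 and Kat8 24.4, so that Kat6b was above Kat8, Kat7 was above Kat5, and Kat6a was above Hat1 (153 CPM), each in every library.

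Bromodomain readers were led by Brd2, a BET protein, at 208, 213, 209 and 216 TPM, or 45.1 ± 0.413% of the summed TPM of the 6 genes. Its BET paralogue Brd3 was at 41.4, 38.996, 39.97 and 40.3 TPM. Brd9 of the non-canonical BAF complex was at 88.0, 82.0, 82.1 and 85.8 TPM and Brd7 of the PBAF complex at 64.2, 70.1, 71.4 and 67.9 TPM. Brd1, a scaffold of MYST complexes, averaged 33.4 ± 0.269 TPM and Brd8, a subunit of the TIP60 complex, 31.3 ± 0.138 TPM. These levels set Brd2 apart from all others of the group, while Brd1 and Brd8 differed by about 2 TPM.

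Scaffolds of deacetylase complexes were dominated by the NuRD protein Mta2 at 319, 318, 315 and 312 TPM. Mta1 was at 131, 134, 129 and 138 TPM and Mta3 at 38.8, 39.6, 38.7 and 39.3 TPM, so the 3 MTA paralogues did not overlap. Sin3a was at 70.1, 69.1, 72.9 and 71.2 TPM, Sin3b at 40.4, 38.3, 37.9 and 38.99 TPM, and the CoREST scaffold Rcor1 at 49.6, 49.3, 49.5 and 47.2 TPM. Mta2 lies on the plus strand of chromosome 19 from 8941875 to 8952303 in mm10.

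Related genes were then set against each other within each library, as log2 ratios of TPM + 0.1. All 22 pairs examined kept 1 direction in 4 of 4 libraries. Each gave 2 of 16 sign patterns as extreme as the one observed in an exact two-sided sign-flip test, a p of 0.125 before and after Benjamini-Hochberg adjustment over the 22 pairs and the smallest that 4 libraries allow, so no pair could pass a threshold of 0.05. As a description only, the size of each ratio exceeded its SD between libraries. The share of other gene pairs that do the same was not computed. The log2 ratio was 1.01 ± 0.07 (SD, n = 4) for Ep300 over Crebbp, 1.59 ± 0.14 for Kat2a over Kat2b and 2.90 ± 0.05 for Kat6a over Kat6b. It was 2.39 ± 0.05 for Brd2 over Brd3, 0.86 ± 0.06 for Sin3a over Sin3b, 1.25 ± 0.05 for Mta2 over Mta1 and 3.01 ± 0.02 for Mta2 over Mta3.

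Deacetylase pairs spanned a wider range. Hdac1 exceeded Hdac2 by 0.62 ± 0.07, Hdac3 by 1.17 ± 0.05 and Hdac8 by 4.39 ± 0.08 on the log2 scale. Hdac7 exceeded Hdac5 by 3.64 ± 0.05 and Hdac4 by 4.13 ± 0.06. For the 2 genes near the floor, counts were pooled over the libraries and scaled by length: Hdac7 stood at 2377 times Hdac9 (exact 95% interval 1857 to 3093, counting error only), and Hdac10 at 207 times Hdac11 (138 to 328). Sirt1 was below Sirt2 (-1.45 ± 0.05), Sirt3 below Sirt4 (-1.34 ± 0.20) and Sirt5 (-1.63 ± 0.14), and Sirt7 above Sirt6 (0.44 ± 0.12).

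The remaining pairs crossed complexes or were close. Kat5 exceeded Kat8 by 1.57 ± 0.10, Kat7 exceeded Kat6a by 0.37 ± 0.06, and Rcor1 was below Sin3a (-0.53 ± 0.05). Brd9 over Brd7, at 0.30 ± 0.12, was the smallest ratio. Its order rests on the exon lengths of 2406 and 5244 bases, since it turned to -0.82 in CPM and to -0.23 when the longest transcript of each gene set the length. Kat7 over Kat6a turned to -0.36 and Sirt3 over Sirt5 to 0.46 in CPM, and Sin3a over Sin3b shrank to 0.08 with the longest transcript. Sirt3 over Sirt4 shrank to -0.04 in CPM, with Sirt3 higher in 2 libraries and lower in 2. Lengths also moved the size of other ratios: with the longest transcript Kat6a over Kat6b was 1.79, Kat5 over Kat8 0.70 and Sirt1 over Sirt2 -2.43. In CPM, Hdac7 over Hdac5 was 2.98, Hdac7 over Hdac4 2.63 and Hdac1 over Hdac2 0.24. The sign of the mean ratio was the same under all 3 scales for 19 of the 22 pairs, Sirt3 over Sirt4 among them.

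**Figure D2:**
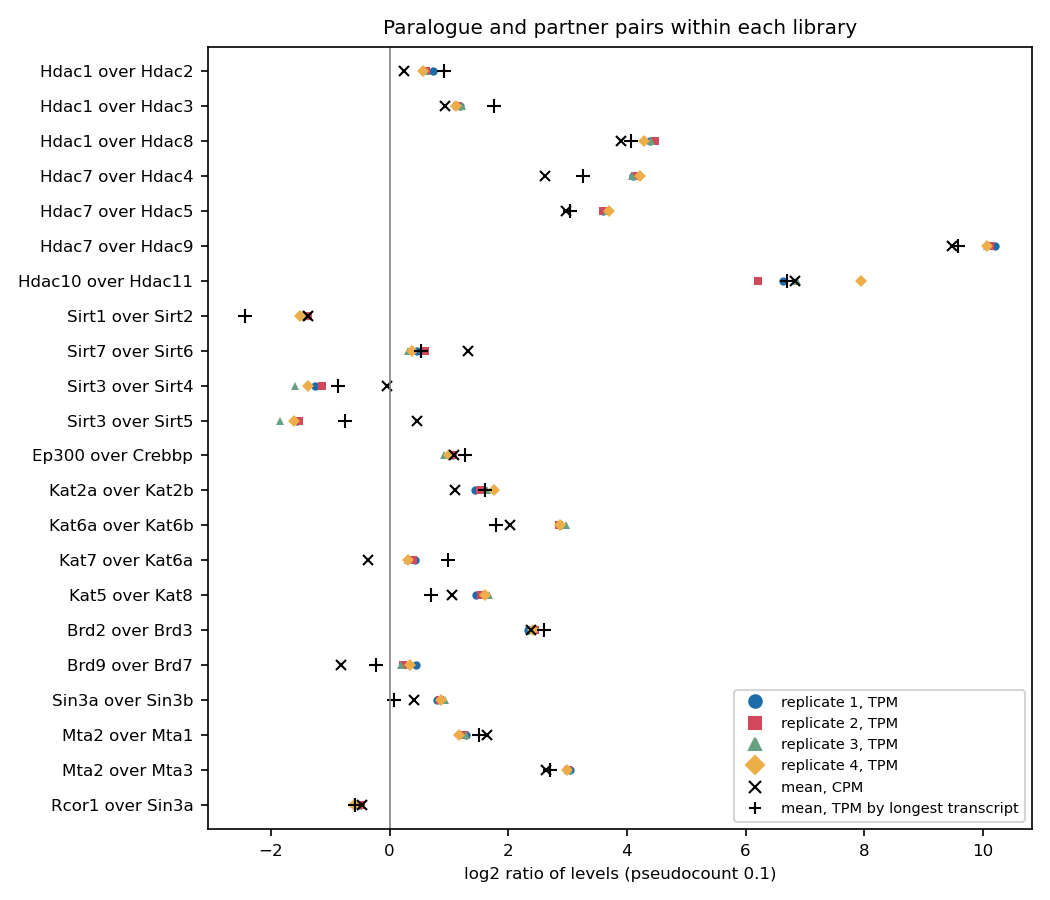
Log2 ratio of levels within a library (pseudocount 0.1) for 22 pairs of related genes; coloured symbols are the 4 libraries by TPM, crosses the mean by CPM, and plus signs the mean by TPM with the longest transcript as length. Hdac7 over Hdac9 is farthest right at 10.11, Brd9 over Brd7 changes side of 0 between the scales, and the coloured symbols of most pairs overlap. The Hdac7 over Hdac9 value depends on the pseudocount, since Hdac9 lies below 0.1 TPM, and was 7.57 with a pseudocount of 1.

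No gene of the machinery was called as varying between the libraries. Counts were tested against a common level in all libraries, at the dispersion that edgeR's trend gives for genes of the same abundance. That trend was fitted to these same libraries, so a gene is called only if it spreads more than is usual at its abundance. Of the 39 genes, 38 passed the filter on low counts, with Hdac11 left out, and 0 of 38 had a Benjamini-Hochberg adjusted p under 0.05, against 0.523% of all genes tested (65 of 12434). At an unadjusted p under 0.05 there were also 0 of 38, against 557 genes (4.48%), and with the size factors and dispersion trend of DESeq2 again 0 of 38. A p that misses the threshold does not show equal levels, so the sizes matter: the ratio of the highest to the lowest library had a median of 1.07 over the 38 genes, against 1.11 over all genes tested, and reached at most 1.30.

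The widest ratios belonged to 2 sirtuins. Sirt3 had a ratio of 1.30 between libraries (unadjusted p = 0.132 by the edgeR trended dispersion, adjusted p = 1), with replicate 3 lowest. Sirt6 had a ratio of 1.22 (unadjusted p = 0.109, adjusted p = 1 by the same test), with replicate 2 lowest. Hdac9 (1.20), Sirt4 (1.16) and Crebbp (1.14) came next by ratio. Brd7, named for its low unadjusted p, had 1.13 (unadjusted p = 0.110, adjusted p = 1 by the same test), with replicate 1 lowest. At the other end, Brd8 had a coefficient of variation of 0.441%, Brd1 of 0.805%, Mta2 of 1.01% and Mta3 of 1.11%. The median coefficient of variation over the 37 detected genes was 3.21%, and over the 8694 protein-coding genes within their range of mean TPM it was 3.94%.

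**Figure D3:**
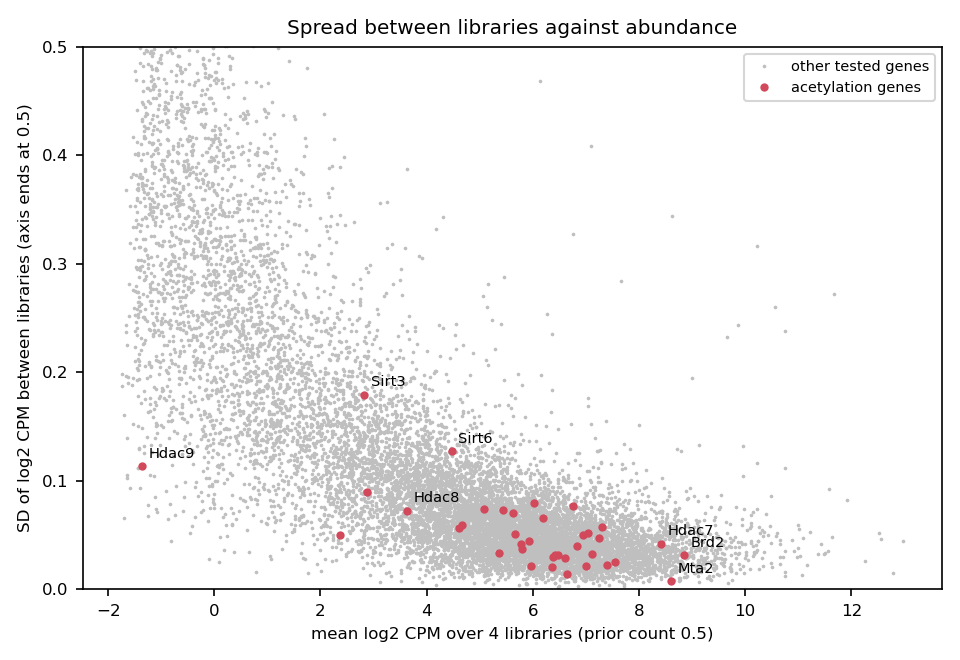
SD of log2 CPM between the 4 libraries against mean log2 CPM; each grey point is a tested gene and each red point 1 of the 38 tested acetylation genes, and the vertical axis ends at 0.5. The red points lie within the grey cloud, with Sirt3 (SD 0.18) and Sirt6 (0.13) toward its upper side and Mta2 (0.0072) at its floor.

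Deep counting resolved differences that are small in size. Against counting noise alone (Poisson deviance, with adjustment over all genes tested), 15 of the 38 genes (39.5%) varied, close to the background of 36.6%. Hdac7 had the lowest adjusted p of these by the Poisson test, 6.06e-08, with a ratio of only 1.07 between its highest and lowest library, ahead of Brd7 (7.66e-06), Hdac2 (0.000116) and Crebbp (0.000135), with ratios of 1.13, 1.09 and 1.14. None of the 38 passed this test with a ratio of at least 2 asked, against 1.74% of all genes tested. The median deviance per degree of freedom was 2.03 over the 38 genes and 2.38 over all genes tested, where 1 is the value of counting noise. Replicate 1 was highest for 16 of the 37 detected genes (43.2%), against 34.4% of detected protein-coding genes, and replicate 3 lowest for 13 (35.1%), against 27.4%.

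Transcripts of further genes linked to these enzymes, together called partner genes, were detected with few exceptions. They are partners in complexes, other bromodomain genes, MEF2 factors and kinases of class IIa enzymes, and genes of acetyl-CoA and NAD supply. Over 11 lists of 123 further genes, 116 reached 1 TPM or more in every library, where 47% of protein-coding genes did, and their median was 35.1 TPM. Of the 9 NuRD partners, all 9 were detected at a median of 134 TPM, led by Rbbp7, a histone chaperone subunit (547 ± 13.3 TPM, SD, n = 4), and Chd4, the NuRD remodeller (351 ± 2.80 TPM). All 13 SIN3 partners were detected at a median of 34.99 TPM, with Brms1 (128 ± 3.93) and Phf12 (62.4 ± 2.48) highest. All 7 CoREST partners were detected at a median of 22.8 TPM, with the demethylase Kdm1a (99.8 ± 1.14) and Zmym2 (32.2 ± 1.24) highest, and all 5 NCoR partners at 67.2 TPM, with Ncor1 (109 ± 2.25) and Gps2 (83.2 ± 2.75) highest. The NuRD list thus had the highest median of the 11.

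Median levels of acetyltransferase partners differed between the lists. All 18 SAGA and ATAC partners were detected at a median of 37.0 TPM, led by Wdr5 (144 ± 2.80 TPM, SD, n = 4) and Dr1 (131 ± 3.15). All 13 TIP60 partners were detected at a median of 32.1 TPM, led by the ATPases Ruvbl2 (240.1 ± 6.29) and Ruvbl1 (149 ± 4.83), and all 9 MSL and NSL partners of Kat8 at 76.4 TPM, led by Hcfc1 (215 ± 5.40) and Mcrs1 (79.0 ± 2.61). Of 7 MOZ and HBO1 partners, 6 were detected, at a list median of 22.7 TPM, with Jade2 (55.2 ± 1.59) and Ing5 (53.6 ± 1.27) highest. Ing4, a paralogue of Ing5, was the exception at 0.531 ± 0.0932 TPM.

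Of 21 other bromodomain genes, 19 were detected, with the ATPase Atad2 (180 ± 4.88 TPM, SD, n = 4) and the remodeller subunit Baz1a (133 ± 5.19) highest. The testis gene Brdt (0.468 ± 0.114) and Cecr2 (0, 3, 1 and 7 counts) were the members under 1 TPM. Of 11 partners and kinases of class IIa deacetylases, 8 were detected. The MEF2 factor Mef2d (51.1 ± 1.496) and the kinase Prkd2 (44.3 ± 1.54) were highest, whereas Mef2b and Prkd1 had 0 counts in every library and Mef2c had 2, 1, 1 and 0. Of the 118 partner genes tested for variation between libraries, 0 had an adjusted p under 0.05 in the same edgeR-based test, 1 (Slc25a1, the mitochondrial citrate carrier) had an unadjusted p under 0.05 (0.847%) and 51 passed the Poisson test (43.2%). Over all genes tested these shares were 0.523%, 4.48% and 36.6%.

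**Figure D4:**
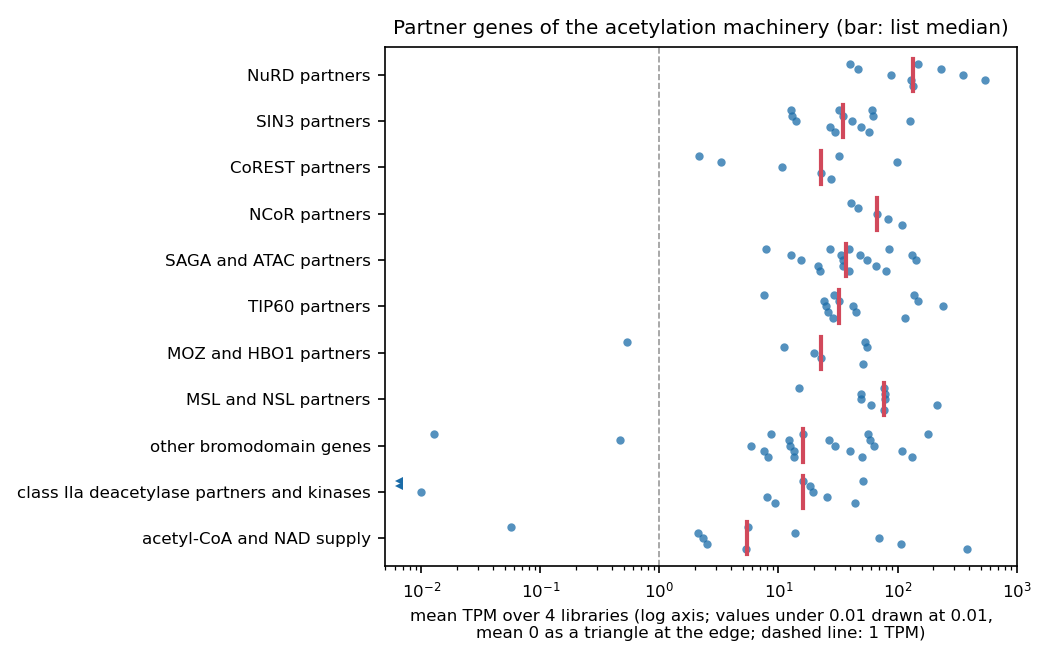
Mean TPM over the 4 libraries (log axis) of 123 partner genes in 11 lists; each point is 1 gene, the red bar is the list median, values under 0.01 are drawn at 0.01 and a mean of 0 as a triangle at the edge. NuRD partners have the highest median at 134 TPM, and 7 genes lie left of the dashed line at 1 TPM.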

How the data were processed

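RNA sequencing of 4 Th17 libraries was analysed. The authors deposited unnormalized counts of fragments over GENCODE M13 exons (mm10), obtained by featureCounts 1.4.6-p4, per the file headers and labels. Both mates had to map and strand option 2 (reverse) was set. Fragments that map to several places or overlap 2 genes on a strand were not counted. For the aligner, nothing is given in the sources used here. Exon lengths are a further deposited column.

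Symbols came from GENCODE M21 by gene ID (50376 of 50600 matched; all 39 members). TPM and CPM were computed here. Detection meant 1 TPM in every library. Variation was tested with edgeR 4.0.16 in R 4.3.3 (TMM, default filter, intercept-only model), since no contrast exists. The deviance at the trended dispersion was set against chi-square with 3 degrees of freedom. The test was checked on counts simulated at the dispersions fitted here. The changes planted were larger than any ratio between libraries among the members tested, so changes of the sizes seen were not covered. Alternatives used DESeq2 1.42.0, no filter, other dispersions, thresholds and pseudocounts, and each library left out. Window sharing used 100-base windows of M21 transcripts, leaving out genes that overlap the member's own locus. Named partner genes are the 2 highest of each list and those under 1 TPM; the acetyl-CoA and NAD list is given whole, a choice made after its values were seen. Members, pairs and lists were chosen with earlier results of these data known. No 2 libraries matched within sampling noise (chi-square per degree of freedom 4.09 to 11.1). The values were 4.09 for replicates 1 and 2 and 5.85 for replicates 3 and 4, the libraries alike in Xist. Between these pairs they were 8.29 to 11.1. The SDs and tests treat the 4 libraries as 1 group and leave this split aside, so n = 4 does not mean 4 independent samples.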

Additional observations from a re-analysis of the deposited data

Results flagged for a closer look

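In 3 of the 39 genes, a library stood apart from the other 3 by a gap larger than Dixon's critical value at the 95% level. Chance alone flags about 1 in 20 such groups, and the share over all genes was not computed. Sirt3 was lowest in replicate 3 at 3.26 TPM. Brd1 was highest in replicate 4 at 33.8 TPM, within a coefficient of variation of 0.805%. Rcor1 was lowest in replicate 4 at 47.2 TPM.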

How the results depend on the processing

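For the member levels, the median over the 39 genes, 38.9 TPM, was 73.1 in CPM, which ignores length, and 41.2 with TPM scaled over nuclear protein-coding genes; it ranged from 38.4 to 39.2 with a library left out, lowest without replicate 1. The number detected was 37 under every alternative except a threshold of 5 TPM, which left 36. Of partner genes, 116 were detected, with 115 in CPM, 110 at 5 TPM and 118 at 0.1 TPM. In CPM, Sirt3 over Sirt5 turned to 0.46, Kat7 over Kat6a to -0.36 and Brd9 over Brd7 to -0.82; with the longest transcript as length, an alternative chosen after seeing the data, Brd9 over Brd7 turned to -0.23. These turns follow from the lengths used. In CPM, 21 pairs kept 1 direction in every library, Sirt3 over Sirt4 being the exception; some ranks by level also turned in CPM, among them Mta2 and Brd2, Hat1 and Kat6a, and Kat8 and Kat6b. The number of genes varying between libraries was 0 under each alternative dispersion, scaling, filter and left-out library; the Poisson test with no ratio asked, also chosen afterwards, gave 15. No paired analysis was possible because all libraries belong to 1 group. Depth limits Hdac9 and Hdac11, each at 21 counts or fewer per library.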

Other observations

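Genes that supply the substrates of these enzymes were uneven in level. Acly, which makes cytosolic and nuclear acetyl-CoA from citrate, was at 384 ± 9.22 TPM (SD, n = 4), and the mitochondrial citrate carrier Slc25a1 at 101, 109, 99.7 and 116 TPM in replicates 1 to 4. The acetate-using synthetases Acss2 (2.31 ± 0.0868 TPM) and Acss1 (2.51 ± 0.318 TPM) were far lower. For NAD, which sirtuins consume, the salvage enzyme Nampt was at 70.5 ± 2.61 TPM, while Naprt (2.10 ± 0.513 TPM) and Nadsyn1 (5.36 ± 0.767 TPM) of the nicotinic acid route were low. Nmnat1, the nuclear NAD synthase, was at 13.8 ± 1.07 TPM, Nmnat3 at 5.50 ± 0.322 TPM and Nmnat2 under 1 TPM with 6, 1, 5 and 3 counts. Of the 10 genes, 9 reached 1 TPM or more in every library, and the list had the lowest median of the 11, at 5.43 TPM. No gene of it was called as varying between libraries by the edgeR-based deviance test; Slc25a1 had a ratio of 1.17 between its highest and lowest library (unadjusted p = 0.0363, adjusted p = 0.99).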
